A study of Mus musculus with 6 samples.

Results

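miR-144, miR-451 and miR-486 are the microRNAs most closely tied to red blood cell formation, and their levels were followed here in splenocytes of lupus-prone mice that carried estrogen implants. They were chosen by name out of 566 mouse miRNA probes on the panel, as mmu-miR-144, mmu-miR-451 and mmu-miR-486. Earlier results of these data were known by then, so their ranks and p-values below are no independent test. All 3 had a mean above the detection floor, as did 95 of the 566. The floor was 53.3 normalized counts, the mean plus 2 SD of the 8 negative control probes.

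All mice were NZB/WF1 females, which develop a lupus-like autoimmune disease without any inducing agent. At 6 to 7 weeks of age they received an implant with 17alpha-ethinyl estradiol (EE, a synthetic estrogen used in contraceptive pills), an implant with 17-beta estradiol (E2, the natural hormone) or an empty implant (placebo), and splenocytes were collected 9 weeks later. Of the 6 samples, 2 belonged to each group. Nothing in the labels shows that they were taken from different mice, and p-values then reflect only how far these samples differ, which may be technical. The sources used here do not give the implant doses, the number of mice behind a sample or any lysis of red cells during splenocyte isolation. Every group carried the same lupus-prone genotype and no group of healthy mice was analysed here.

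MicroRNAs are short RNAs that guide Argonaute proteins to messenger RNAs by pairing mainly through the seed, bases 2 to 8 of the miRNA. In mice, miR-144 and miR-451 are cut from a single primary transcript that the erythroid factor GATA1 activates. miR-451 is the best known miRNA that matures without Dicer, through cleavage of its short hairpin by Argonaute 2, and in mouse erythroid cells it represses Ywhaz, which encodes the 14-3-3 zeta protein. miR-144 lowers klfd, a regulator of alpha-globin, in zebrafish. miR-486 has a locus of its own in the ankyrin 1 gene, which encodes a protein of the red cell membrane skeleton, and it is abundant in both erythroid cells and skeletal muscle. The mouse spleen holds circulating red cells and, unlike the human spleen in health, also forms them in adults.

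The mature sequences are shown to tell which RNAs the probes read and to set miR-144 beside its closest seed relative. They come from RefSeq (build GRCm38.p6), in which 2 of the 3 miRNAs were matched. Seeds are in capitals. The probe names follow miRBase version 15, per the labels, and mmu-miR-144 without an arm was read as the 3p arm.
miR-144-3p: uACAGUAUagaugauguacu
miR-451a: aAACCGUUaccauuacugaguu
miR-101a-3p: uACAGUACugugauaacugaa
The mature miR-144-3p lies at chr11:78073047-78073066 and miR-451a at chr11:78073186-78073207, both on the plus strand, and miR-101a-3p lies at chr4:101346957-101346977 on the minus strand. No other mature miRNA name in the table shares the full seed of miR-144-3p or of miR-451a. miR-101a-3p differs from miR-144-3p inside the seed by U8C alone, counted from the 5′ end of miR-144-3p. The seeds of miR-144-3p and miR-451a differ, so the 2 miRNAs of a shared transcript carry different targeting sequences.

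The hairpins are shown because miR-144 and miR-451 are released from theirs in different ways. The mature miRNA is in capitals.
Mir144: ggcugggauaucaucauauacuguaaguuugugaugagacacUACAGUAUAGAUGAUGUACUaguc
Mir451a: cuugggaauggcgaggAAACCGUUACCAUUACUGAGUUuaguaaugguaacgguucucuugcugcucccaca
The Mir144 hairpin spans chr11:78073005-78073070 and the Mir451a hairpin chr11:78073170-78073241 (GRCm38.p6, plus strand), with 99 bases between them. In the fold predicted by RNAfold, miR-144-3p takes positions 43 to 62 of 66 bases and no base of the 6-base terminal loop. miR-451a takes positions 17 to 38 of 72 and includes all 4 bases of its terminal loop. Mir486 lies within the span of Ank1 in the RefSeq gene table and overlaps Mir3107, also called mir-486b, and the probe name does not say which of them it reads.

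**Figure D1:**
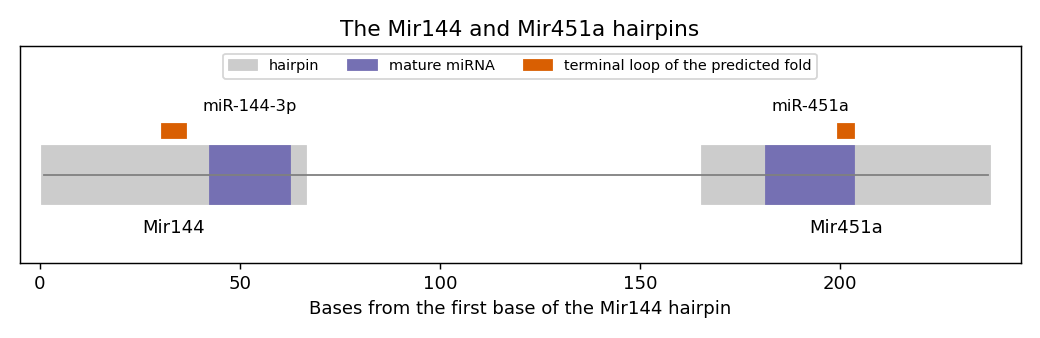
The Mir144 and Mir451a hairpins drawn to scale in bases from the first base of Mir144, with hairpins in grey, mature miRNAs in purple and the terminal loop of the predicted fold in orange above them. The mature miR-144-3p ends clear of its loop, while miR-451a runs to the end of its 4-base loop.

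Values are whole-number scores that the authors deposited, read here as barcode counts rescaled per sample. They summed to 167152 to 178633 over all probes in the estrogen samples and to 188433 and 205209 in the placebo samples. The raw depth is unknown, so no interval for counting error is given. Folds below compare means of log2(count + 1) in a limma fit over all 95 tested miRNAs and all 6 samples, with Benjamini-Hochberg adjustment over the 95 and a threshold of 0.05. Capture efficiency of each probe is unknown, so levels are compared between samples and not between miRNAs.

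miR-486 stood at 1443 and 1312 normalized counts in the EE samples, at 973 and 980 in the E2 samples and at 192 and 83 in the placebo samples. The 3 groups did not overlap, and the widest gap was that between the E2 and placebo samples. Among the 95 tested miRNAs, both EE samples lay above both E2 samples in 26.3%. Both E2 samples lay above both placebo samples in 17.9%. The group means were 1378 ± 92.6 with EE, 976.5 ± 4.95 with E2 and 137.5 ± 77.1 with placebo (SD, n = 2 each).

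miR-451, the miRNA that skips Dicer, stood at 6060 and 5060 normalized counts in the EE samples, at 3857 and 3050 in the E2 samples and at 1128 and 468 in the placebo samples. Again the 3 groups did not overlap, and the placebo samples lay furthest apart in relative terms. The means were 5560 ± 707 with EE, 3453.5 ± 571 with E2 and 798 ± 467 with placebo (SD, n = 2 each).

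miR-144, from the same transcript, stood at 430 and 815 normalized counts in the EE samples, at 400 and 346 in the E2 samples and at 73 and 45 in the placebo samples. Both estrogen groups lay wholly above placebo, while the lower EE sample was close to the higher E2 sample. Placebo sample 2 was under the floor of 53.3 and placebo sample 1 just above it, so the size of the placebo level is uncertain. The means were 622.5 ± 272 with EE, 373 ± 38.2 with E2 and 59 ± 19.8 with placebo (SD, n = 2 each).

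**Figure D2:**
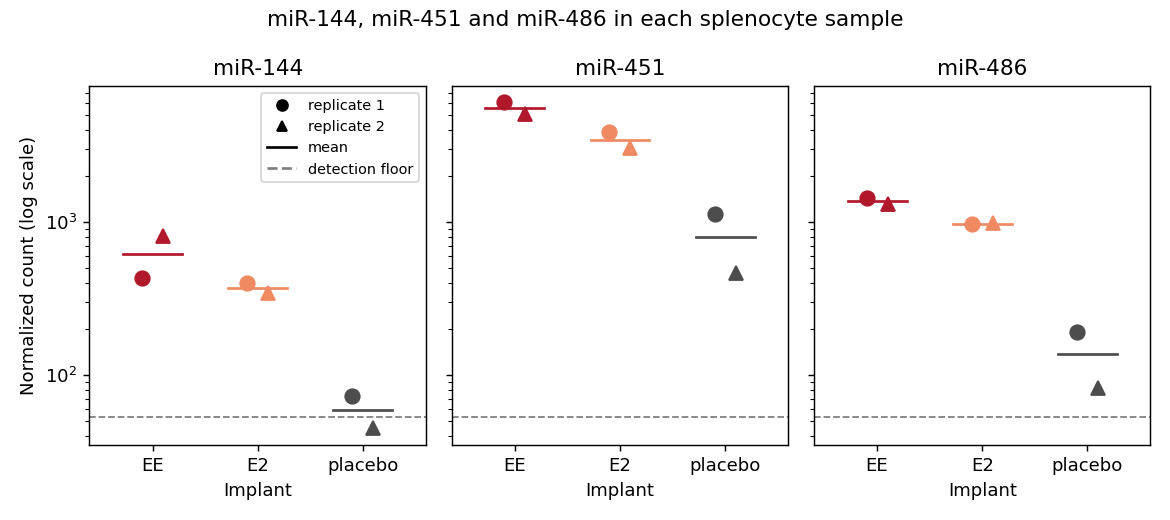
Normalized counts of miR-144, miR-451 and miR-486 on a log axis in each sample with an EE, E2 or placebo implant, with circles for replicate 1, triangles for replicate 2, a bar for the mean and a dashed line at the detection floor of 53.3. All estrogen samples lie above both placebo samples for each miRNA, and only miR-144 reaches the floor, in placebo sample 2 at 45 normalized counts.

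The order of the group levels was EE, E2, placebo for each of the 3 miRNAs. The step between E2 and placebo exceeded the spread between replicates in each, and that between EE and E2 did not pass the test for any. The position among the 566 mouse miRNAs of a sample moved in the same way. miR-451 ranked at positions 3 and 5 with EE, at 8 and 10 with E2, and at 25 and 34 with placebo. miR-486 ranked at 21 and 22 with EE, at 29 and 26 with E2, and at 43 and 73 with placebo. miR-144 ranked at 35 and 28 with EE, at 36 and 37 with E2, and at 80 and 104 with placebo.

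Summed, the 3 miRNAs took 6.99% and 6.44% of the total over mouse miRNAs in the EE samples, against 4.04% and 3.62% with E2, and 0.921% and 0.428% with placebo. In counts these sums were 7933 and 7187 with EE, 5230 and 4376 with E2, and 1393 and 596 with placebo. The counts of all other mouse miRNAs ran the opposite way, at 105582 and 104429 with EE, 124144 and 116436 with E2, and 149856 and 138541 with placebo. miR-150, a lymphocyte miRNA, accounted for much of that difference, at 15277 and 14140 normalized counts with EE, 24211 and 22678 with E2, and 44123 and 35124 with placebo.

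The comparison of EE with placebo asked which miRNAs changed with the synthetic estrogen. All 3 rose, where 10.5% of the 95 tested miRNAs were called higher. The log2 fold change was 3.43 ± 0.31 (SE) for miR-486, 3.35 ± 0.30 for miR-144 and 2.93 ± 0.32 for miR-451. These are folds of 10.8 (95% interval 6.73 to 17.4), 10.2 (6.38 to 16.2) and 7.61 (4.64 to 12.5). limma gave adjusted p-values of 1.34e-05 for miR-486 and miR-144 and of 6.36e-05 for miR-451. Both EE samples lay above both placebo samples in all 3, as they did in 26.3% of tested miRNAs. The median log2 fold change was 3.35 over the 3 and -0.11 over all 95. The 3 had the highest log2 fold changes of the 95, and the next, miR-376a at 1.30, did not pass the threshold (limma adjusted p 0.201). Without placebo sample 1 the log2 fold changes were 4.03 for miR-486 and 3.56 for miR-451, and without placebo sample 2 they were 2.83 and 2.29, with the calls kept. With the negative controls subtracted, that of miR-144 was 4.02. A robust variance estimate, which lets single miRNAs keep a larger variance, kept the calls. It raised the limma adjusted p to 0.0444 for miR-451 and 0.0192 for miR-486, and lowered that of miR-144 to 4.94e-08.

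The comparison of E2 with placebo asked the same of the natural hormone, and used the same 2 placebo samples. All 3 rose again, where 4.21% of the 95 were called higher. The log2 fold change was 2.94 ± 0.31 (SE) for miR-486, 2.68 ± 0.30 for miR-144 and 2.24 ± 0.32 for miR-451. These are folds of 7.68 (95% interval 4.78 to 12.3), 6.39 (4.01 to 10.2) and 4.71 (2.88 to 7.73). limma gave adjusted p-values of 1.13e-04 for miR-486 and miR-144 and of 7.38e-04 for miR-451. Both E2 samples lay above both placebo samples in all 3, as they did in 17.9% of tested miRNAs. The median log2 fold change was 2.68 over the 3 and -0.20 over all 95. The next miRNA was miR-223 at 1.63, which passed too (limma adjusted p 1.13e-04). A robust variance estimate, which lets single miRNAs keep a larger variance, ended the calls of miR-451 (limma adjusted p 0.116) and miR-486 (0.0522) and kept that of miR-144. Without placebo sample 1 the log2 fold changes were 3.54 for miR-486 and 2.87 for miR-451, and without placebo sample 2 they were 2.34 and 1.60, with the calls kept. With the negative controls subtracted, that of miR-144 was 3.33.

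In the fit that kept the 3 groups apart, the mean of EE and E2 was also set against placebo. It lay higher by 3.19 ± 0.27 log2 units (SE) in miR-486, by 3.01 ± 0.26 in miR-144 and by 2.58 ± 0.28 in miR-451. All 3 passed in limma, with adjusted p-values of 1.36e-05, 1.36e-05 and 5.35e-05, where 9.47% of the 95 were called higher. All 4 estrogen samples lay above both placebo samples in each, as in 14.7% of the 95. Without placebo sample 1 the log2 fold changes were 3.79 for miR-486 and 3.22 for miR-451, and without placebo sample 2 they were 2.59 and 1.95, with the calls kept. With the negative controls subtracted, that of miR-144 was 3.68. The robust variance estimate kept the calls, at limma adjusted p 0.0420 for miR-451, 0.0178 for miR-486 and 2.08e-08 for miR-144.

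**Figure D3:**
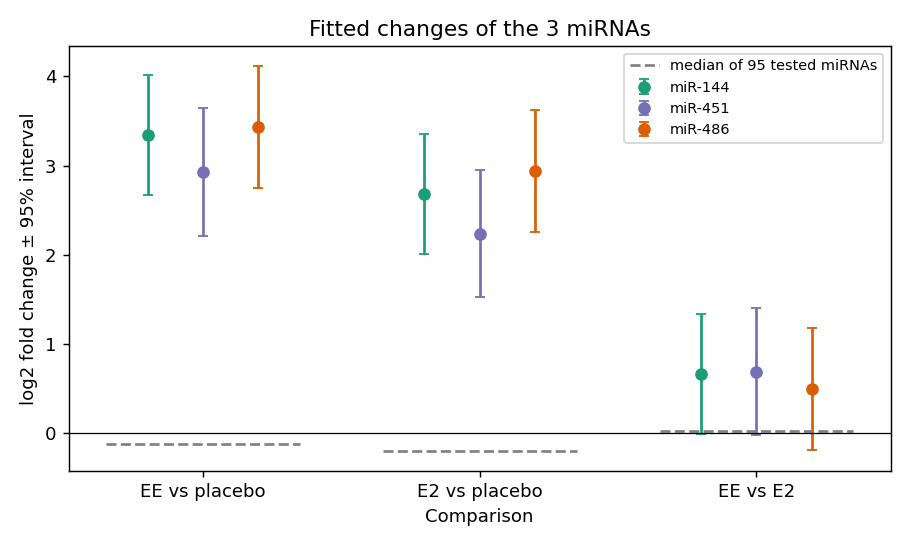
Fitted log2 fold changes with 95% intervals of miR-144, miR-451 and miR-486 for EE vs placebo, E2 vs placebo and EE vs E2, with a dashed line at the median of the 95 tested miRNAs. The changes against placebo run from 2.24 to 3.43 and their intervals stay above 0, while all 3 intervals of EE vs E2 reach below 0.

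EE carries an ethinyl group at the 17alpha position that E2 lacks, and their direct comparison asked where the 2 estrogens gave different levels. The doses are not given, so they are not known to be matched. None of the 3 passed, where 3.16% of the 95 were called higher with EE, 4.21% lower and 7.37% in either direction, and 0 of the 3 had an unadjusted limma p under 0.05, where 18.9% of the 95 did. The log2 difference of EE minus E2 was 0.69 ± 0.32 (SE) for miR-451, 0.67 ± 0.30 for miR-144 and 0.49 ± 0.31 for miR-486. As folds these were 1.61 (95% interval 0.985 to 2.65), 1.59 (0.998 to 2.53) and 1.41 (0.877 to 2.26), with limma adjusted p-values of 0.243, 0.234 and 0.379. Each interval holds both no difference and a level 2.26 times as high with EE, so the values do not show that the estrogens act alike. Both EE samples lay above both E2 samples in all 3, as in 26.3% of tested miRNAs.

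The call for miR-451 depended on the placebo samples, which share the estimate of spread. With only the EE and E2 samples fitted, the SE of miR-451 fell to 0.14 and it passed (limma adjusted p 0.00356), while miR-144 (0.0742) and miR-486 (0.0541) did not. miR-451 also passed without placebo sample 1 (adjusted p 0.00633) or placebo sample 2 (0.00417), and with rescaling by housekeeping mRNAs (log2 difference 1.0, where the median of all 95 was 0.34) or positive controls (0.71). miR-144 passed without EE sample 1, at a log2 difference of 1.13. With rescaling by ligation controls the differences were 0.17 for miR-451, 0.15 for miR-144 and -0.029 for miR-486, where the median of all 95 was -0.49.

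The 3 miRNAs were among the most variable in the placebo group. Placebo sample 1 exceeded placebo sample 2 by 2.41-fold for miR-451, 2.30-fold for miR-486 and 1.61-fold for miR-144 on the count + 1 scale. By absolute log2 difference they ranked at positions 2, 3 and 6 of 95, where the median difference was 0.22. All 3 were higher in placebo sample 1, which also had the higher total over mouse miRNAs (151249 against 139137). The share of the 95 that were higher there was not counted. The shared direction is thus not shown to be particular to the 3. In the E2 samples miR-486 lay close together and miR-451 and miR-144 lay further apart than the median miRNA, with log2 differences of sample 1 minus sample 2 of 0.34 for miR-451, 0.21 for miR-144 and -0.010 for miR-486, against a median absolute difference of 0.18. In the EE samples miR-451 (0.26) and miR-486 (0.14) were higher in sample 1, while miR-144 was higher in sample 2, by 0.92 log2 units. The EE difference of miR-144 ranked at position 3 of 95 by size, and it ran opposite to that of its cluster partner miR-451.

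A ratio of 2 miRNAs within a sample does not depend on how the sample was scaled. miR-486 over miR-451 was 23.8% and 25.9% with EE, 25.2% and 32.1% with E2, and 17.0% and 17.7% with placebo. The 4 estrogen samples lay above both placebo samples. The mean log2 ratio was higher by 0.61 with estrogen, with a two-sided exact permutation p of 0.0667, which is the smallest that 4 against 2 samples can give, and of 0.2 when adjusted over the 3 ratios. The difference was larger than the SD of each group, the largest of which was 0.25 in E2.

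miR-144 over miR-451, the ratio within the cluster, was 7.10% and 16.1% with EE, 10.4% and 11.3% with E2, and 6.47% and 9.62% with placebo. The groups overlapped, and the EE samples spanned nearly the whole range. The mean log2 ratio differed by 0.45 between estrogen and placebo (two-sided exact permutation p 0.333, adjusted 0.5). It was 0.16 without placebo sample 1, 0.73 without placebo sample 2 and 0.26 without EE sample 2. With the negative controls subtracted, which lowers the near-floor placebo values of miR-144, it differed by 1.09 (exact permutation p 0.0667). miR-144 over miR-486 was 29.8% and 62.1% with EE, 41.1% and 35.3% with E2, and 38.0% and 54.2% with placebo, with full overlap. The mean log2 ratio differed by -0.17 (two-sided exact permutation p 0.733), and the sign turned with the negative controls subtracted (0.24) and without placebo sample 2 (0.091).

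**Figure D4:**
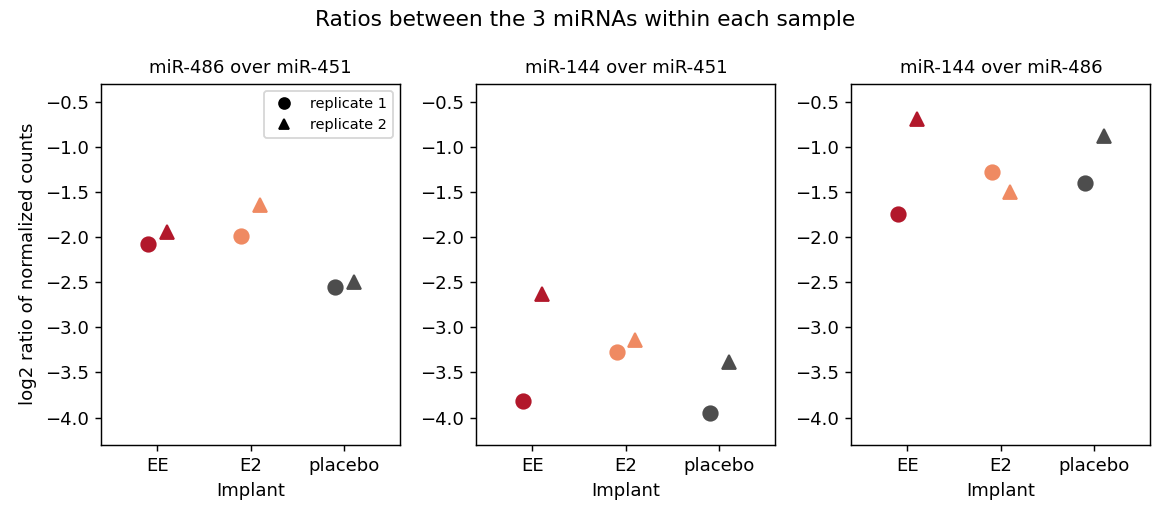
log2 ratios of the normalized counts of miR-486 over miR-451, miR-144 over miR-451 and miR-144 over miR-486 in each sample with an EE, E2 or placebo implant, with circles for replicate 1 and triangles for replicate 2. The 4 estrogen samples lie above both placebo samples for miR-486 over miR-451, and both ratios with miR-144 overlap between groups.

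Likeness of profile was measured as the root mean square difference of log2(count + 1) over the 6 samples, after each miRNA was centred on its own mean. For each of the 3 miRNAs, the other two were its nearest neighbours among the 95. miR-451 and miR-486, from different loci, were the closest pair at 0.32 log2 units, against 0.36 for miR-144 and miR-486 and 0.43 for miR-144 and miR-451. The nearest other miRNAs were the same for all 3, and lay further away on this scale. With profiles scaled to an SD of 1, the combined probe for miR-106a and miR-17 was nearer to miR-451 (0.24) than miR-144 was (0.26). Unscaled, the nearest others were miR-223, which is most abundant in neutrophils and monocytes, at 0.89 to 1.06 log2 units, miR-93 at 0.99 to 1.23 and miR-126-3p, an endothelial miRNA, at 0.99 to 1.25.

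Of these, miR-223 had another order of groups than the 3 erythroid miRNAs. It was at 1984 and 2042 normalized counts with EE, at 3522 and 3244 with E2, and at 1308 and 911 with placebo. It ran in the order E2, EE, placebo, and was lower with EE than with E2 (log2 difference -0.75 ± 0.18, SE, limma adjusted p 0.0320), with both EE samples below both E2 samples, as in 30.5% of tested miRNAs. miR-126-3p was at 154 and 180 with EE, 103 and 88 with E2, and 78 and 80 with placebo. miR-93 was at 223 and 191 with EE, 148 and 154 with E2, and 100 and 114 with placebo. Both followed the order EE, E2, placebo, with log2 fold changes against placebo that passed with EE, at 1.07 and 0.94 (limma adjusted p 0.00189 and 0.00305), and did not pass with E2, at 0.27 and 0.50.

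**Figure D5:**
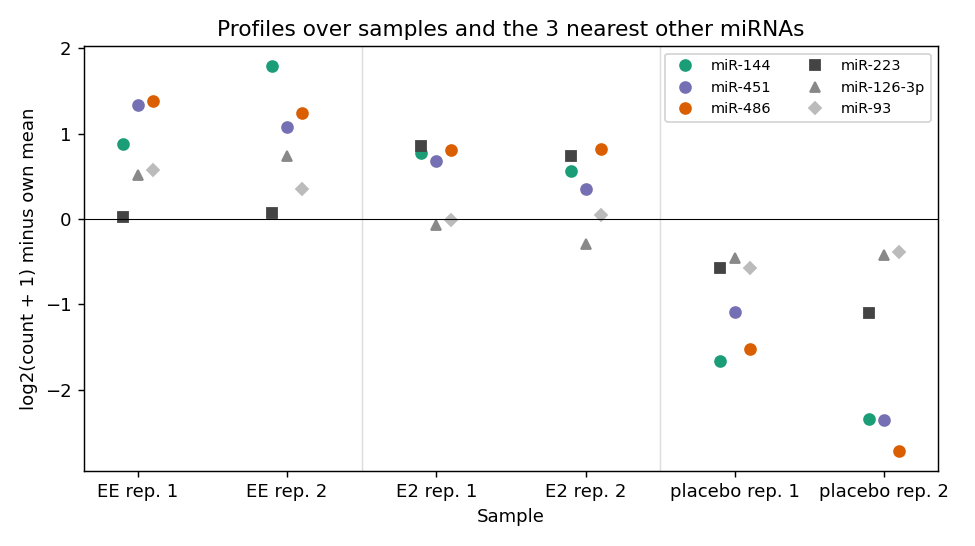
log2(count + 1) of miR-144, miR-451 and miR-486 (circles) and of the 3 nearest other miRNAs (grey symbols) in each sample, minus each miRNA's mean over the 6 samples. From its lowest to its highest single sample, each of the 3 erythroid miRNAs spans more than 3 log2 units, and miR-223 is highest in the E2 samples.

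Other miRNAs linked to red cell maturation were read from 2 lists. Of 10 miRNAs listed as rising with red cell maturation or abundant in mature red cells, 4 were tested and 0 passed in either direction against placebo, with EE, with E2 or with both together in limma. Over all 95, 26.3% were called in either direction with EE, 10.5% with E2 and 23.2% with both, so a count of 0 of 4 is near the background. Their median log2 fold change was 0.06 with EE and 0.12 with E2. miR-16, an abundant miRNA that restrains the cell cycle, had 10210 and 9416 normalized counts with EE, 9859 and 10194 with E2, and 10893 and 11046 with placebo. Its log2 fold changes were -0.16 with EE and -0.13 with E2. miR-15b was at -0.11 and 0.05, miR-22 at 0.23 and 0.20, and miR-25, of the miR-106b-25 cluster, at 0.35 and 0.34. At an unadjusted limma p under 0.05, 1 of the 4 passed with EE (miR-25, p 0.0445), 0 with E2 and 1 with both estrogens (miR-25, p 0.0262), where 36.8%, 21.1% and 37.9% of the 95 did. The other 6, miR-92a, miR-96, miR-107, miR-182, miR-183 and miR-210, had means under the floor.

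Of 7 miRNAs listed as falling with red cell maturation, 5 were tested, and in each comparison with placebo 1 was lower and 1 higher, where 15.8% of the 95 were called lower and 10.5% higher with EE, 6.32% lower and 4.21% higher with E2, and 13.7% lower and 9.47% higher with both estrogens. miR-150 fell, with log2 fold changes of -1.42 ± 0.11 (SE) with EE and -0.75 ± 0.11 with E2, at limma adjusted p-values of 1.18e-05 and 9.53e-04. miR-223 rose, by 0.88 ± 0.18 with EE and 1.63 ± 0.18 with E2. miR-155, an activation miRNA of lymphocytes, was at -1.39 and -1.03 with a wide spread, miR-191 at -0.36 and -0.39 and miR-24 at 0.15 and -0.24, none past the threshold. miR-221 and miR-222, which restrain KIT in human erythroid progenitors, had means under the floor. miR-150 and miR-155 also stand among the lymphoid markers below, and miR-223 and miR-24 among the myeloid markers. Their values there are the same ones and add no separate evidence.

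The partial seed relatives of miR-144 stayed low. miR-101a was at 19 and 23 normalized counts with EE, 16 and 22 with E2, and 8 and 18 with placebo, all under the floor. miR-101b was at 73 and 76 with EE, 58 and 62 with E2, and 60 and 63 with placebo, with log2 fold changes of 0.27 with EE and -0.04 with E2 that did not pass (limma adjusted p 0.357 and 0.904). The difference of EE minus E2 was 0.31 (limma adjusted p 0.393), with both EE samples above both E2 samples, as in 26.3% of tested miRNAs.

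Markers of other cells moved beside the 3 erythroid miRNAs. The 4 lymphoid markers on the panel, miR-150, miR-155, miR-181a and miR-342-3p, summed to 17275 to 18317 normalized counts with EE, 26813 to 28683 with E2, and 41204 to 50872 with placebo. Of these 4, 3 were lower with each estrogen, where 15.8% of the 95 were lower with EE and 6.32% with E2, and their part in the erythroid result was not tested. In bulk RNA, fewer cells of a type and less RNA per cell cannot be told apart. The 5 myeloid markers, miR-21, miR-23a, miR-24, miR-27a and miR-223, summed to 5443 to 5727 with EE, 6126 to 6633 with E2, and 4791 to 5009 with placebo. Of these, miR-223 was higher with each estrogen, where 10.5% of the 95 were called higher with EE and 4.21% with E2. miR-23a was lower with EE, where 15.8% of the 95 were. The median log2 fold change of the 5 myeloid markers was 0.09 with EE and -0.24 with E2. Their higher sums with estrogen therefore do not show a rise of the list as a whole. miR-126-3p and miR-126-5p, of endothelium and platelets, summed to 166 to 193 with EE, 100 to 115 with E2, and 84 in each placebo sample. The stromal and smooth muscle markers miR-125b-5p, miR-143 and miR-145 summed to 230 to 249 with EE, 104 to 121 with E2, and 176 to 177 with placebo. Of the 2 tested, 1 was higher with EE and 1 was lower with E2. The part of these markers in the erythroid result was not tested either.

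Skeletal muscle is the other main source of miR-486, and its markers were near background. All 7 muscle miRNAs, miR-1, miR-133a, miR-133b, miR-206, miR-208a, miR-208b and miR-499, were under the floor in every sample, at no more than 29 normalized counts with EE, 28 with E2 and 21 with placebo. Their sum was 76 to 107 with EE, 71 to 98 with E2, and 78 to 83 with placebo. The liver miRNA miR-122 reached at most 8 normalized counts in any sample, and the 4 pancreas markers, miR-216a, miR-216b, miR-217 and miR-375, at most 27.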

How the data were processed

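Total RNA of splenocytes from 6 samples was profiled on version 1.5 of the nCounter mouse miRNA panel, in which colour-coded barcodes are counted without amplification, per the labels. For each of 626 probes the authors deposited a whole-number score. They were read as counts that the authors rescaled per sample and rounded, because the geometric mean of the 100 highest miRNAs differed by no more than 3.54% between samples, whereas the spread of the summed positive controls was 30.6%. The sources used here do not give the normalization, background correction or software. The raw depth is unknown, so no count model was fitted. Groups came from the treatment labels, which give no batch and no pairing.

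limma 3.58.1 in R 4.3.3 was fitted (lmFit, eBayes with a mean trend) to log2(value + 1) of 95 mouse miRNAs whose mean exceeded the mean + 2 SD of the negative controls, with 10.5 total degrees of freedom. The pseudocount understates changes of low miRNAs. Tests were two-sided, with Benjamini-Hochberg adjustment over the 95. Ratios were tested by exact permutation of 4 against 2 samples, with EE and E2 pooled. That test cannot go below 0.0667, and 2 against 2 samples cannot go below 0.333. Neither can reach the threshold used for limma, so the p-values of the ratios cannot decide whether they differ. Hairpins were folded with RNAfold 2.7.2. The fit was tested on simulated data. Alternatives changed the scaling, background, pseudocount, filter, variance model or samples.

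The 3 miRNAs and the lists were chosen with earlier results of these data known. Named were the 3, their 3 nearest other miRNAs each by profile, all tested members of the red cell and seed lists, and up to 3 of each other list.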

Additional observations from a re-analysis of the deposited data

How the results depend on the processing

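The rises of miR-144, miR-451 and miR-486 against placebo kept their direction under all 20 alternatives, with log2 fold changes of 2.29 to 4.03 with EE and 1.60 to 3.54 with E2. The 3 calls held throughout with EE and with both estrogens together. These calls came closest to the threshold for miR-451 with a robust trend, at limma adjusted p 0.0444 with EE and 0.0420 with both. With E2, a robust trend left 1 of the 3, with each log2 fold change unchanged. miR-451 at 2.24 and miR-486 at 2.94 were then no longer past the threshold. For EE against E2, 0 of the 3 passed, and 1 did with housekeeping mRNA rescaling (miR-451, 1.0), positive control rescaling (miR-451, 0.71) and only the 2 groups fitted (miR-451, 0.69). Leaving out 1 sample gave 0 to 1 call there, with log2 differences of 0.21 to 1.13 for miR-144 and 0.52 to 0.86 for miR-451. The difference of EE minus E2 in miR-486 was reversed, at -0.029, with ligation control rescaling. With the negative controls subtracted, the log2 ratio of estrogen over placebo was 1.09 for miR-144 over miR-451, 0.85 for miR-486 over miR-451 and 0.24 for miR-144 over miR-486, and the last ran from -0.42 to 0.091 when 1 sample was left out. The same subtraction put the summed share of the 3 in EE at 7.21%, against 6.71%. That share and the ratios with 1 sample left out were added after seeing the data. With profiles scaled to an SD of 1, 1 of the 3 nearest other miRNAs was shared for miR-144 and 0 for miR-451 and miR-486. The cause of these changes was not tested.

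Among all tested miRNAs, the number called moved by over 1.5 times in several settings. The tests and their adjustment covered 95 miRNAs, except 566 with no filter and 71 with a filter at 100. With EE against placebo it was 25, against 15 with median rescaling or without EE replicate 2, 16 with housekeeping mRNA rescaling or a filter at 100, 11 with ligation control rescaling and 14 with no filter. With E2 it was 10, against 4 with median or ligation control rescaling, 5 with no filter and 6 without E2 replicate 1. For EE against E2 it ran from 0 to 12, against 7. With both estrogens it was 22, against 13 with median rescaling or only the groups compared, 14 with housekeeping mRNA rescaling or without either E2 replicate, 7 with ligation control rescaling and 11 with no filter. Scaling also moved the split of calls. With EE it was 10 higher and 15 lower, against 6 and 15 with positive control and 3 and 8 with ligation control rescaling. With E2 it was 4 higher and 6 lower, against 7 and 5 with quantile normalization and 4 and 0 with median or ligation control rescaling. The median log2 difference of EE minus E2 over the 95 was 0.03, against 0.34 with housekeeping and -0.49 with ligation control rescaling. No paired analysis was possible because the labels give the groups no shared replicate numbers.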

Other observations

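When profiles were compared by shape alone, scaled to an SD of 1 over the 6 samples, miRNAs with much smaller changes came close to miR-451 and miR-486. The nearest were the combined probe for miR-106a and miR-17, miR-15a and miR-25. The combined probe was at 1278 and 1116 normalized counts with EE, 1154 and 1104 with E2, and 932 and 860 with placebo, and miR-15a was at 1759 and 1444 with EE, 1617 and 1472 with E2, and 1223 and 962 with placebo. Their log2 fold changes against placebo were 0.42 and 0.55 with EE and 0.33 and 0.51 with E2, and of these only miR-15a with EE passed in limma (adjusted p 0.0433). The scaled distance from miR-451 was 0.24 for the combined probe, 0.27 for miR-15a and 0.28 for miR-25, against 0.13 for miR-486 and 0.26 for miR-144. These miRNAs were named after their values were seen.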
